A study of Harpegnathos saltator with 27 samples.

Results

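The last pupal interval of antennal development in wild-type (WT) *Harpegnathos saltator* was examined by comparing antennae at D25 with antennae at D20, in days after puparium formation (APF). The libraries were chosen by their genotype and stage labels, 4 at D20 and 4 at D25, which makes 8 of the 27 libraries of the series. *H. saltator* is a ponerine ant, and the series follows polyA RNA of pupal antennae of WT ants and of mutants of orco, the gene of the odorant receptor co-receptor, from D10 to D25. The 8 WT libraries carried no mutation or treatment, and 3 mutant libraries at each of D20 and D25 served as a second comparison. At both stages, replicates 1 to 3 belonged to sequencing batch 1 and replicate 4 to sequencing batch 3, so batch and stage were balanced. Neither the labels nor the methods give the number of pupae behind a library or say that replicates came from separate pools. The p-values here therefore measure only a spread between libraries, which the main fit estimated from all 27 libraries, mutants and earlier stages included.

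In the last days before an insect emerges as an adult, the antenna finishes its cuticle while its sensory neurons mature. The epidermis secretes structural proteins and chitin, hairs and sensilla acquire their pores, and the cuticle is then tanned through dopamine made from tyrosine. Genes of the Osiris family encode insect membrane proteins that in *Drosophila* are expressed when cuticle is secreted, and Osi23 is required there for the pores of olfactory sensilla. Olfactory neurons carry odorant receptors (Or), which work with Orco, and other neurons carry ionotropic (Ir) and gustatory (Gr) receptors.

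Some libraries stood apart from the others of their stage. Between 8324206 reads, in D25 replicate 3, and 47957602 reads, in D25 replicate 4, were counted on genes, and unmapped reads made up 30.6 and 19.8% of these libraries against 2.86 to 7.18% of the other 6. Over 11086 genes tested, those whose counts averaged 10 or more, the rank correlation between D20 replicates 1 to 3 was 0.973 to 0.987 (Spearman's rho, across genes, which are not independent replicates). D25 replicates 1, 2 and 4 were each closest to a D20 library, with a rho of 0.956 and 0.967 with D20 replicate 2 and of 0.979 with D20 replicate 3. D25 replicate 4 had 0.862, 0.926 and 0.821 with D25 replicates 1, 2 and 3, which reached 0.928 to 0.936 among themselves. D20 replicate 4 reached 0.905 to 0.934 with the other D20 libraries and 0.952 with D25 replicate 4, which was of the same batch. The per-gene SD of log2(normalized count + 1) had a median of 0.547 at D25 and 0.311 at D20, and 2607 genes (23.5%) at D25 differed by more than 4-fold between replicates against 1189 (10.7%) at D20. Without replicate 4 the medians were 0.406 and 0.226. The libraries also differed along gene length. Across 10347 genes with a known span, the rank correlation of span with the difference from the D20 mean was −0.492, −0.185, −0.480 and 0.463 in D25 replicates 1 to 4 and −0.366, −0.430, 0.313 and 0.342 in D20 replicates 1 to 4. Beyond a batch term and a fit of batch 1 alone, both given below, the part of sequencing batch in the results that follow was not tested. The part of read mapping and gene length was not tested.

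**Figure D1:**
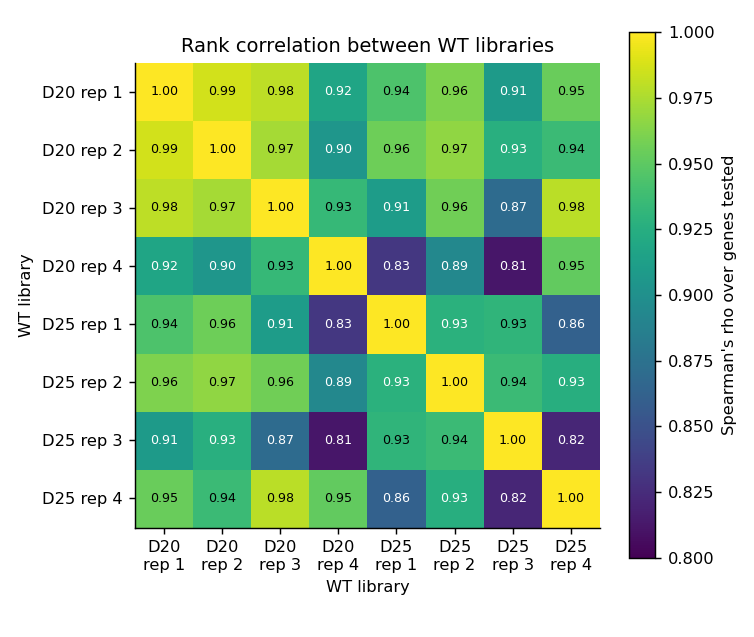
Spearman's rho between each pair of the 8 WT libraries over 11086 genes, with both axes listing the libraries and color giving rho from 0.8 to 1. D25 replicate 4 had its highest value, 0.979, with D20 replicate 3, and D25 replicate 3 had its lowest, 0.812, with D20 replicate 4.

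Between D20 and D25, 1 of 11086 genes passed an adjusted p of 0.05, a share of 0.00902%, and this gene rose (edgeR's quasi-likelihood test with Benjamini-Hochberg adjustment). No gene fell, and 785 of the 11086 genes had an unadjusted p under 0.05 in either direction, the background for the list counts below. In the same fit, 1682 genes rose and 1170 fell from D10 to D15 (25.7% of genes called), and 617 rose and 666 fell from D15 to D20 (11.6%). In mutant antennae, 192 genes rose and 180 fell from D20 to D25 (3.36%). That interval was not balanced for batch, with D20 replicate 1 of batch 1 and the others of batch 3. The median per-gene SD in mutants was 0.420 at D20 and 0.164 at D25, against 0.311 and 0.547 in WT. The test of the difference between genotypes, given below, passed for 6 genes. DESeq2 called 34 genes higher and 9 lower at D25 (0.388%). Of those 34, 31 had their highest value of the 8 libraries in D25 replicate 3, and 7 of the 9 had it in D20 replicate 4. Over all 11086 genes, D25 replicate 3 was the highest of its stage in 3337 and D20 replicate 4 in 3981. The highest of the 8 was not counted over all genes. These same libraries also picked the called genes, so the counts only describe them. Leaving out D25 replicate 4 gave 58 genes higher and 27 lower (0.767%), and leaving out replicate 4 of both stages gave 5 and 1 (0.0543%). With sequencing batch as a term, 3 were higher and 1 was lower (0.0361%). In these bulk samples, fewer cells of a type and less RNA per cell cannot be told apart.

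**Figure D2:**
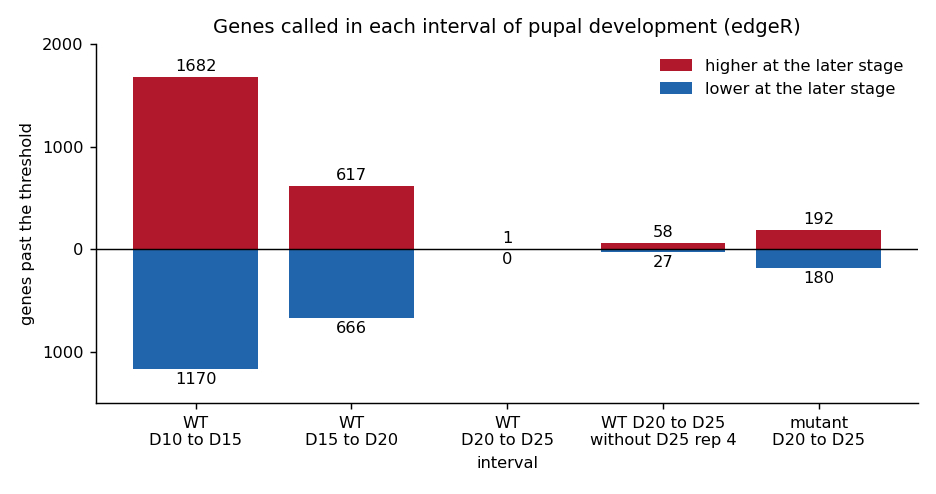
Genes past an adjusted p of 0.05 in edgeR for each interval, with genes higher at the later stage above the line and genes lower at the later stage below it. The WT interval from D20 to D25 held 1 and 0 genes, and 58 and 27 without D25 replicate 4. WT had 1682 and 1170 from D10 to D15 and 617 and 666 from D15 to D20. Mutants had 192 and 180 from D20 to D25, an interval not balanced for batch.

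The gene that rose was LOC105189380, a protein-coding gene with no symbol in the RefSeq table. Its normalized counts were 316, 176, 543 and 487 in D20 replicates 1 to 4 and 20729, 29896, 69109 and 3669 in D25 replicates 1 to 4. All D25 libraries lay above all D20 libraries, with D25 replicate 3 the highest and D25 replicate 4 the lowest of its stage. The means were 380.3 ± 167 and 30851 ± 27724 (SD, n = 4 each), a 81.1-fold difference. The log2 fold change, given throughout as the edgeR estimate ± its standard error, was 6.35 ± 1.01 (adjusted p = 0.0295, edgeR, Benjamini-Hochberg), and 5.59 without D25 replicate 3. Earlier WT means were 48.1 at D10 and 71 at D15, and mutant libraries had 302, 169.6 and 301 at D25. The test of the difference between WT and mutant in this change gave a log2 value of 6.67 and an adjusted p of 0.0531 (edgeR, Benjamini-Hochberg), just outside the threshold. Every D25 library was high, but the call rested on single libraries and on which libraries gave the spread. The adjusted p was 0.874 with only the 8 WT libraries, 0.815 with only the 15 WT libraries and 0.161 with only batch 1 (edgeR, Benjamini-Hochberg). It was 0.0522, 0.0525 and 0.0526 without mutant D20 replicate 2, mutant D25 replicate 1 and mutant D25 replicate 3 (edgeR, Benjamini-Hochberg). Without any other single mutant library of D20 or D25 it stayed under 0.05. Libraries of D10 and D15 were not left out. The adjusted p was 0.0590 without D25 replicate 2, 0.0711 without D25 replicate 3, and 0.312, 0.307, 0.197 and 0.197 without D20 replicates 1, 2, 3 and 4 (edgeR, Benjamini-Hochberg).

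Some genes of the Osiris family, though not all, were high in some D25 libraries and low or near 0 in the others. Of 13 Osiris genes with a symbol, 12 lie within 20 consecutive places of the RefSeq gene order, and 12 of the 13 passed the count minimum, with Osi14 below it. Osi18 had normalized counts of 2.83, 1.21, 3.69 and 2.95 at D20 and 17.8, 519, 8289 and 5.41 at D25, replicates 1 to 4. It was near 0 in all D20 libraries, low in D25 replicates 1 and 4, and high in D25 replicates 2 and 3. Its log2 fold change was 9.60 ± 1.79, with an adjusted p of 0.0852 (edgeR, Benjamini-Hochberg), which missed the threshold. It was 6.03 without D25 replicate 3.

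Both of these D25 libraries were high for 4 more members of the family, named after their values were seen. Osi15 had 0, 0, 1.23 and 2.36 at D20 and 1.98, 508, 9047 and 2.16 at D25. Osi19 had 4.25, 6.06, 0 and 2.36 at D20 and 3.96, 341, 6004 and 4.33 at D25. Osi20 had 5.66, 0, 9.84 and 7.68 at D20 and 9.9, 394, 6238 and 9.19 at D25. In each of these, D25 replicate 3 held the most and D25 replicate 2 came next. Osi9 had 1.42, 0, 3.69 and 9.45 at D20 and 3.96, 806, 10399 and 0.541 at D25, with the same order. Adjusted p was 0.205 for Osi15, 0.189 for Osi19, 0.236 for Osi20 and 0.489 for Osi9 in edgeR with Benjamini-Hochberg adjustment. DESeq2 called all 5, with adjusted p-values of 4.19e-10 for Osi18 to 0.000331 for Osi9, and edgeR without D25 replicate 4 called Osi15, Osi18, Osi19 and Osi20. At D20 these genes had 0 to 16 counts per library, so the size of their fitted fold changes depends on few reads.

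Mutant antennae at D25 also held transcripts of these genes. Osi18 reached 254, 413 and 23.7 in mutant D25 replicates 1 to 3, Osi15 reached 207, 736 and 0.816, and Osi9 reached 1040.3, 1455 and 123. Mutant D25 replicate 3 was the lowest of the 3 for each gene. At D20, mutant values were 2.29, 9.44 and 3.59 for Osi18, 1.15, 0 and 0.599 for Osi15 and 2.29, 1094 and 7.78 for Osi9. Osi9 in mutant D20 replicate 2 lay between mutant D25 replicates 1 and 2, and none of the 3 passed in mutants (adjusted p = 0.087, 0.0879 and 0.861, edgeR, Benjamini-Hochberg). The interaction of stage and genotype did not pass for Osi18 (log2 value 4.13 ± 2.35, adjusted p = 0.584, edgeR, Benjamini-Hochberg).

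Other members of the family had a different history. Osi16 had 88389, 95.4, 42846 and 21.3 in WT D15 replicates 1 to 4 and at most 65 in any library of D20 or D25, a value found in D20 replicate 4. Osi2 had 958, 495, 16962 and 125 at D15 and at most 109 later, again in D20 replicate 4. The D15 libraries thus differed widely, with D15 replicate 3 high for both. Osi23, the pore gene of *Drosophila*, had 5.66, 9.69, 8.61 and 113 at D20 and 1.98, 2.56, 0 and 11.4 at D25. D20 replicate 4 stood above the other 7 libraries. Osi17 had 81.2, 178, 1232 and 112 and Osi24 had 45.5, 59, 667 and 165 at D25, with D25 replicate 3 highest for both.

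**Figure D3:**
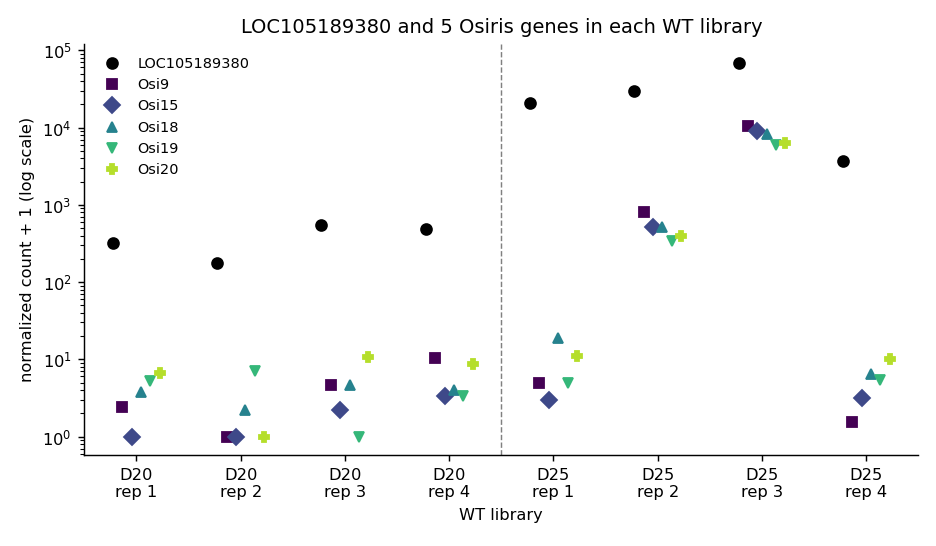
Normalized count plus 1, on a log axis, of LOC105189380 and 5 Osiris genes in each of the 8 WT libraries, with each point a library. All 4 D25 libraries lie above the D20 libraries for LOC105189380, whereas the Osiris genes are high in D25 replicates 2 and 3 only.

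LOC105189380 is listed in the RefSeq gene order within a run of 14 protein-coding genes that differed sharply in D20 replicate 4. In 12 of the other 13 genes, D20 replicate 4 was over 5 times higher than every other D20 library, the smallest ratio being 7.62. LOC105189364 had 87.8, 95.7, 75 and 110555 at D20 and 398, 382, 602 and 106 at D25. LOC105189366 had 217, 231, 324 and 93973 at D20 and 511, 262, 124 and 276 at D25. LOC105189384 had 11.3, 20.6, 27.1 and 15640.5 at D20 and 37.6, 15.4, 27.6 and 15.1 at D25. In all 12 genes, every D25 library was below D20 replicate 4, and in 10 of the 12 the WT D15 mean was above every D25 library. LOC105189366 had 192, 152, 99411 and 149 in D15 replicates 1 to 4, so that its D15 mean came from D15 replicate 3. The same held for LOC105189364, with 86.8, 120, 33390 and 21.3, and LOC105189367, with 30.1, 15.2, 27139 and 14.2. For LOC105189367, D15 replicates 1, 2 and 4 lay below every D25 library (95, 38.5, 46 and 46.5). For LOC105189363, every D15 library (192, 112, 25258 and 145) lay above every D25 library (0, 3.85, 4.6 and 2.7). The count of 10 thus compares means and not single D15 libraries. LOC105189362, listed next to LOC105189380 on the other side, was low in D20 replicate 4, with 6464, 4703, 5152 and 482 at D20 and 7239, 476, 138 and 4778 at D25. LOC105189380 itself was not set apart in D20 replicate 4. The products of these genes are not given in the files used here, the run was chosen after its values were seen, and copies that resemble each other may share reads.

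**Figure D4:**
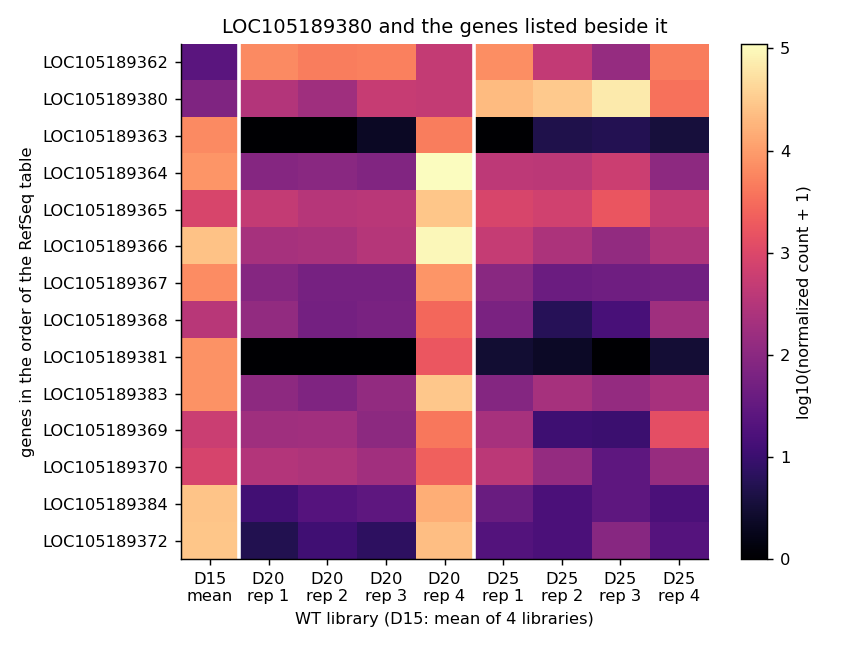
Log10(normalized count + 1) of LOC105189380 and the 13 genes listed beside it, in gene order from top to bottom, with the WT D15 mean at the left and the 8 libraries to the right. D20 replicate 4 is bright for 12 genes, and the D25 libraries are bright for LOC105189380. The D15 mean of several genes, such as LOC105189366, came mostly from D15 replicate 3.

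The same library was extreme for genes elsewhere. LOC105189842 had 19.8, 41.2, 17.2 and 103039.7 at D20 and 144, 7.69, 156 and 41.6 at D25, and was high at D15 in replicate 3 alone, with 85.1, 103, 54889.7 and 151. Cyp303a1, a cytochrome P450 needed for sensory bristles in *Drosophila*, had 127, 96.9, 134 and 28675 at D20 and 61.4, 128, 50.6 and 862 at D25. Its log2 fold change was −4.68 ± 1.49 (adjusted p = 0.604, edgeR, Benjamini-Hochberg), and it was 1.25 without D20 replicate 4. DESeq2 called it lower, with an adjusted p of 0.0336. CSP2, of the chemosensory protein family, had 926, 717, 678 and 34425 at D20 and 1156, 817, 1227 and 1114 at D25. Lsd-1, a perilipin of lipid droplets, had 2.83, 3.63, 12.3 and 634 at D20 and 1.98, 5.13, 4.6 and 8.11 at D25 (adjusted p = 0.677, edgeR, Benjamini-Hochberg). In the mutants of D20, CSP2 had 1175, 2899 and 8554 and LOC105189842 had 30.9, 1809 and 14250.2, with replicates 2 and 3, of batch 3, above replicate 1, of batch 1.

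Genes of the ecdysteroid and juvenile hormone list, the hormones that time molts, had 0 calls by edgeR or DESeq2 among 21 tested, and 0 above and 2 below had an unadjusted p under 0.05. The median log2 fold change was −0.31 against 0.011 over all genes tested, and −0.79 against −0.016 without D25 replicate 4. Eip74EF, an ecdysone-induced transcription factor, had 3151, 3195, 2846 and 21224 at D20 and 3312, 2916, 1922 and 2613 at D25, so that D20 replicate 4 stood far above the other 7 libraries. Kr-h1, a transcription factor induced by juvenile hormone, had 2.83, 3.63, 7.38 and 40.7 at D20 and 3.96, 1.28, 0 and 3.78 at D25. Its log2 fold change was −2.36 ± 0.78 (adjusted p = 0.667, edgeR, Benjamini-Hochberg), and −0.76 without D20 replicate 4.

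The 5 genes with the highest mean over the 8 libraries had no call. The gene with the most reads in all 8 libraries was apd-3l, whose symbol is that of apidermins, cuticle proteins described in the honey bee. It took 27.9, 30.6, 27.1 and 4.64% of the gene counts in D20 replicates 1 to 4 and 20.3, 32.4, 31.4 and 21.8% in D25 replicates 1 to 4. D20 replicate 4 was the lowest by far. The log2 fold change of apd-3l from D20 to D25 was 0.30 with a standard error of 0.81 (adjusted p = 0.918, edgeR, Benjamini-Hochberg). LOC105189843 and LOC105189844, listed next to each other in the gene order, had log2 fold changes of 0.49 ± 0.80 and 0.45 ± 0.87 (standard error), and LOC105190556 had −0.31 ± 0.59. The fifth of these genes, LOC112588745, had 69612, 169820.0, 55750.1 and 788 at D20 and 142162, 549182, 2831103 and 8203 at D25. It was highest in D25 replicates 3 and 2 and lowest in replicate 4 of each stage. Its log2 fold change, 3.55 ± 1.33, had an adjusted p of 0.677 (edgeR, Benjamini-Hochberg) and was 1.65 without D25 replicate 3. In mutants this gene rose from D20 to D25, from 19684, 1448 and 896 to 1051097, 1061882 and 903583 (log2 fold change 7.08, adjusted p = 0.0325, edgeR, Benjamini-Hochberg).

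The chitin and cuticle structure list held 32 tested genes, with 0 called in edgeR, 5 above and 2 below at an unadjusted p under 0.05, and 5 called by DESeq2, which called 0.388% of all genes. These 5 are the Osiris genes described above. Its median log2 fold change was −0.12, and −0.46 without D25 replicate 4. Cpr92F, a cuticle protein gene, had 8694, 9876, 5379 and 75 at D20 and 11841, 182, 36.8 and 2281 at D25, so that high and low libraries occurred at both stages. The 7 tested genes of cytochrome P450 and conjugation had a median of −0.60, with Cyp303a1 the only member at an unadjusted p under 0.05. Cyp4g15 had 33283, 18498, 34882 and 23823 at D20 and 19600.4, 2332, 193 and 50782 at D25, and its lowest and its highest library were both of D25.

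Enzymes of tanning gave no call, and replicates of a stage spread widely. The list had 4 tested genes (ple, Ddc, e and yellow-b), of which 0 were called by edgeR or DESeq2 and 0 had an unadjusted p under 0.05, and its median was −0.13. Tyrosine hydroxylase, ple, had 106, 368, 92.3 and 1531 at D20 and 354, 5678, 6841 and 98.9 at D25. D25 replicates 2 and 3, the libraries with high Osiris genes, were the highest, and D25 replicate 4 was the lowest of its stage. Dopa decarboxylase, Ddc, had 3771, 3471, 4894 and 33.7 at D20 and 3995, 3503, 4717 and 627 at D25, with replicate 4 the lowest of each stage. Prophenoloxidase, PPO, was counted in the immunity list, where it was 1 of 3 genes at an unadjusted p under 0.05, and had 806, 1251, 853 and 676 at D20 and 1217, 3718, 7479.6 and 281 at D25. Ebony, e, which joins dopamine to beta-alanine, had 755, 241, 178 and 2169 at D20 and 273, 158, 55.2 and 229 at D25, with a change of −2.19 ± 1.10 on the log2 scale (adjusted p = 0.677, edgeR, Benjamini-Hochberg) and −1.10 without D20 replicate 4.

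Leaving out D25 replicate 4 brought 85 genes past the threshold, 29 of them among the 43 that DESeq2 called on all libraries. In 49 of the 58 genes that rose in that fit, D25 replicate 4 was no higher than the highest D20 library. In 27 of the 27 that fell, it was no lower than the lowest. The fit that picked these genes left this library out, and the same shares over all genes tested were not counted, so the counts only describe these genes. Nrt, neurotactin, an adhesion protein of neurons in *Drosophila*, had 2935, 2009.8, 3932 and 7123 at D20 and 505, 1203, 363 and 5228 at D25. Its log2 fold change was −1.13 with all libraries (adjusted p = 0.677) and −2.51 without D25 replicate 4 (adjusted p = 0.0129, both edgeR, Benjamini-Hochberg). Other genes with a symbol that fell in that fit included Orc3, of the origin recognition complex, Rab23, a small GTPase, Dnmt3, a DNA methyltransferase, and eIF3a, a translation initiation factor. Those that rose included Thor, a translation inhibitor, Tim8, of mitochondrial import, and AQP, an aquaporin. LOC105182670, with 129, 178, 140.2 and 76.2 at D20 and 216, 531, 814 and 232 at D25, and LOC105185605, with 21.2, 43.6, 29.5 and 21.3 and 113, 105, 198 and 45.4, did not overlap between stages. Both passed with sequencing batch as a term, as did LOC105189380, while Tmem98, with 1581, 1388, 1591 and 2195 and 722, 1036, 827 and 1626, was the only gene lower in that fit. LOC105190610, with the second-lowest p in the fit of all libraries, had 24.1, 33.9, 41.8 and 59 and 89.1, 1509, 1931 and 62.2 (log2 fold change 4.47, 3.79 without D25 replicate 3, adjusted p = 0.0852, edgeR, Benjamini-Hochberg). It was high in D25 replicates 2 and 3, as were some of the Osiris genes. These genes were chosen after their values were seen.

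Odorant receptors gave no call in this interval. Of 360 tested Or genes, 0 were called by edgeR or DESeq2, and 3 had an unadjusted p under 0.05, all above. The median log2 fold change was 0.12, 0.065 without D25 replicate 4, and 0.10 as the difference of the 2 libraries of batch 3. In the order of p, the first was HsOr49, with 55.2, 105, 77.5 and 106 at D20 and 111, 315, 409 and 76.8 at D25 and a fold change of 1.38 ± 0.53 on the log2 scale (adjusted p = 0.677, edgeR, Benjamini-Hochberg). Its D25 replicates 2 and 3 were high, and its replicate 4 lay within the D20 range. HsOrco, the co-receptor, had 2179, 1998, 2735 and 3461 and 1959.7, 6027, 4514 and 2603, and its log2 fold change was 0.54 ± 0.42 (adjusted p = 0.721, edgeR, Benjamini-Hochberg). The D20 and D25 libraries did not overlap for 9 Or genes, 8 of them higher at D25, where 94 of all 11086 genes were higher without overlap (0.848%) and 89 were lower (0.803%). HsOr30, of these 8, had 151, 133, 154 and 105 at D20 and 176, 194, 276 and 209 at D25, and HsOr286, the only one lower, had 48.1, 48.5, 50.4 and 84.4 and 31.7, 42.3, 27.6 and 47.6. Their edgeR adjusted p-values were 0.793 and 0.755 (edgeR, Benjamini-Hochberg). Or genes with near-identical copies may share reads.

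The other receptor families gave no call. Ionotropic receptors, 19 tested, had 0 genes at an unadjusted p under 0.05, 0 calls by DESeq2, and a median of −0.17. That median was −0.40 within batch 1 and 0.41 between the libraries of batch 3. The lowest p was that of HsIr317, with 11.3, 14.5, 24.6 and 13 and 13.9, 6.41, 4.6 and 11.4 (log2 fold change −0.73, adjusted p = 0.745, edgeR, Benjamini-Hochberg). Gustatory receptors, 9 tested, had 2 at an unadjusted p under 0.05, both above, and 0 calls by DESeq2. HsGr1 had 49.5, 52.1, 64 and 15.9 at D20 and 39.6, 844, 234 and 20.5 at D25, where D25 replicates 2 and 3 were high. Its log2 fold change was 2.67 ± 0.97 (adjusted p = 0.677, edgeR, Benjamini-Hochberg), and 1.00 without D25 replicate 2. Among 8 perireceptor genes, which carry odorants to the neurons, 0 were at an unadjusted p under 0.05 or called by DESeq2, and the lowest p was that of Obp6, an odorant binding protein, with 5.66, 3.63, 11.1 and 7.09 and 15.8, 17.9, 27.6 and 10.8. The ammonia transporter gene Rh50 had 48.1, 50.9, 32 and 13 and 51.5, 62.8, 46 and 24.9 (log2 fold change 0.36 ± 0.88).

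Several neuronal genes spread widely at both stages. Of 57 tested synapse and excitability genes, 0 were called by edgeR or DESeq2, and 3 above and 1 below had an unadjusted p under 0.05. Their median log2 fold change was 0.039, −0.20 without D25 replicate 4, and 0.53 between the 2 libraries of batch 3. Teh1, an auxiliary subunit of the voltage-gated sodium channel, had 36.8, 38.8, 49.2 and 56.1 at D20 and 51.5, 136, 87.3 and 95.7 at D25, a fold change of 1.04 ± 0.33 on the log2 scale (adjusted p = 0.604, edgeR, Benjamini-Hochberg). The vesicle protein gene nSyb had 4931, 4818, 6994 and 4582 and 7019, 7126, 4836 and 6983, and the calcium channel gene cac had 1269.9, 770.5, 2424 and 1510.5 and 2359, 2119, 703 and 2271. D25 replicate 3 was the lowest D25 library for both. Syt1, a calcium sensor of vesicle release, LOC105190174 (fne) and LOC105183587 (onecut), 3 further neuronal markers, had D25 values of 2195, 2098, 1034 and 3226, of 10222, 4114, 1227 and 11026 and of 358, 467, 124 and 925. At D20 they had 1842, 1436, 2879 and 2596, 4676, 3330, 8519 and 9401, and 258, 237, 744 and 580. Their log2 fold changes were −0.026, 0.047 and 0.064 with standard errors of 0.30, 0.44 and 0.56, and each sign changed when single libraries were left out. LOC105188598 (nompC), a mechanosensory channel, had 7.08, 37.6, 18.5 and 13.6 and 35.6, 23.1, 27.6 and 21.1 (log2 fold change 0.47 ± 0.50). LOC105186084, a gene fixed beforehand whose cell type is not given, had 1611, 2029, 1514 and 3264 and 1249, 1871, 1388 and 985 in WT. Its log2 fold change was −0.61 ± 0.71, and mutant D25 libraries had 5056, 4812 and 4358.

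Adhesion and guidance genes, 28 tested, had 3 log2 fold changes above 0 and 25 below, with a median of −0.35, where 51.3% of all genes tested were above 0. Between the 2 libraries of batch 3 the median was 0.053, with 16 of 28 above 0. With 0 calls by edgeR or DESeq2, 2 above and 1 below had an unadjusted p under 0.05. In D25 replicates 1 to 4, their median difference from the D20 mean was −0.96, −0.17, −1.27 and 0.55. The gene bdl, an immunoglobulin protein of axons, had 2077, 2807, 1909 and 1839 at D20 and 2329.8, 4654, 8413 and 1911 at D25, against the direction of most of its list (log2 fold change 1.00 ± 0.30, adjusted p = 0.604, and 0.0301 without D25 replicate 4, edgeR, Benjamini-Hochberg). The list of neuron fate and timing, 23 tested, had a median of −0.21 with 0 calls by either tool and 1 gene at an unadjusted p under 0.05, below. That gene was Poxn, a selector of chemosensory bristles in *Drosophila*, with 112, 121, 162 and 817 and 79.2, 138, 78.2 and 216, highest in D20 replicate 4. The median of the neuron fate list was −0.44 within batch 1 and 0.20 between the libraries of batch 3. Cilium and mechanosensation genes, 41 tested, had a median of −0.13, 0 calls by either tool, and 1 above and 2 below at an unadjusted p under 0.05. Within batch 1 their median was −0.26, and between the libraries of batch 3 it was 0.17, with 30 of 41 above 0. TTLL15, of the tubulin tyrosine ligase family, had 239, 276, 236 and 453 and 150.4, 150.0, 165 and 305 (log2 fold change −0.64, adjusted p = 0.677, edgeR, Benjamini-Hochberg).

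Genes of oxidative phosphorylation and of the cytosolic ribosome had mostly positive fold changes without a call by edgeR or DESeq2. Of 51 oxidative phosphorylation genes, 49 had a log2 fold change above 0, with a median of 0.48 against 0.011 over all genes tested. Of these genes, 16 above and 0 below had an unadjusted p under 0.05 (edgeR), against 785 of all 11086 in either direction. Of 58 ribosomal protein genes, 57 had one above 0, with a median of 0.43 and 0 at an unadjusted p under 0.05. Over all genes tested, 51.3% were above 0. ND-B8, a subunit of complex I, had 658, 701, 518 and 373 at D20 and 1421, 810.3, 1853 and 305 at D25, with D25 replicates 1 to 3 above all D20 libraries and D25 replicate 4 below them. RpL39 had 2854, 3370.3, 1965 and 3225 and 8173, 3287, 7824 and 1873, with D25 replicates 1 and 3 high. Their log2 fold changes were 0.96 and 0.89 with standard errors of 0.39 and 0.44 (adjusted p = 0.677 and 0.677, edgeR, Benjamini-Hochberg).

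The direction of both lists differed between batches, as it did for other lists, among them ionotropic receptors, neuron fate and cilium genes. Within batch 1 the medians were 0.57 and 0.58, and the difference between the 2 libraries of batch 3 was −0.078 and −0.37, above 0 in 19 of 51 and 3 of 58 genes. Per library, the ribosomal list differed from the D20 mean by a median of 1.07, 0.025, 0.86 and −0.69 in D25 replicates 1 to 4. These genes have short spans, with medians of 1654 bp for oxidative phosphorylation and 1539 bp for the ribosome, against 4554 bp over genes tested, 46638 bp for synapse and excitability and 103523 bp for adhesion. In D25 replicates 1 and 3, both short lists were high and adhesion genes were low. These libraries also had the most negative correlation of span with the difference from the D20 mean. Synapse genes were low in D25 replicate 3, with a median difference of −1.03, and at −0.20 lay within the D20 range in D25 replicate 1. The part of length in these values was not tested.

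**Figure D5:**
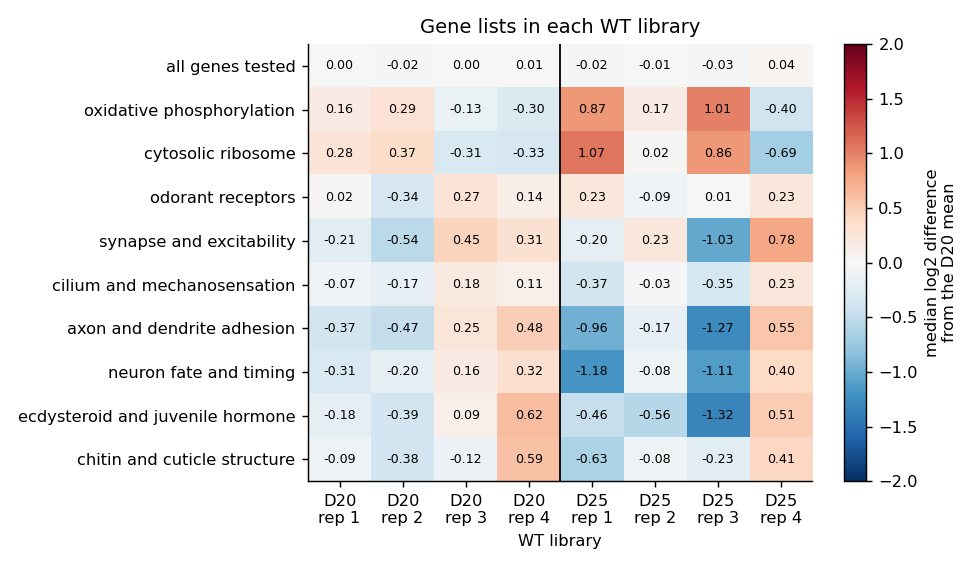
Median over the genes of each list of the log2 difference of a library from the mean of the 4 D20 libraries, from log2(normalized count + 1), for all genes tested and 9 lists in rows and the 8 WT libraries in columns. Oxidative phosphorylation and ribosome genes were high, and adhesion and neuron fate genes low, in D25 replicates 1 and 3, whereas D25 replicate 4 went the other way and D25 replicate 2 stayed near the D20 mean.

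Genes of protein folding, division, death, lipid, immunity and the clock had 0 calls by edgeR or DESeq2. The medians were −0.068 over 23 chaperone and ER stress genes, −0.024 over 36 division genes, −0.017 over 7 death genes, −0.17 over 15 lipid and hydrocarbon genes, 0.0081 over 13 immunity genes and −0.028 over 7 clock genes. At an unadjusted p under 0.05 there were 1, 1, 0, 1, 3 and 0 of them. GCS2alpha, a glucosidase of the endoplasmic reticulum, had 2949, 2796, 2950.1 and 4479 and 1692, 2357, 2634 and 2894, with D20 replicate 4 highest (log2 fold change −0.46, adjusted p = 0.677, edgeR, Benjamini-Hochberg). The chaperone gene Hsc70-3 and its regulator Xbp1 had log2 fold changes of −0.19 ± 0.18 and −0.25 ± 0.29 (standard errors). Orc3 had 238, 205, 284 and 448 at D20 and 129, 108, 87.3 and 329 at D25, below all D20 libraries except in D25 replicate 4. Mcm2, a replication helicase subunit, behaved alike, with 113, 108, 111 and 93.9 and 63.3, 51.3, 64.4 and 118. The log2 fold changes of Orc3 and Mcm2 were −0.82 ± 0.33 and −0.50 ± 0.33, and Orc3 passed without D25 replicate 4 (adjusted p = 0.0218, edgeR, Benjamini-Hochberg). Dredd, a caspase, had 243, 281, 221 and 184 and 580.0, 242, 464 and 171. The Toll ligand gene spz6 had 36.8, 66.6, 52.9 and 95.1 and 95, 696, 906 and 27.6, again high in D25 replicates 2 and 3 (log2 fold change 2.74, 2.11 without D25 replicate 3, adjusted p = 0.677, edgeR, Benjamini-Hochberg). Among clock genes the lowest p was that of cwo, at a log2 fold change 0.24 ± 0.31.

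Markers of the cells other than neurons were present at both stages and had 0 calls by edgeR or DESeq2. Over 11 muscle genes, 10 of them tested, the sum of normalized counts ran from 20735 to 43238 at D20 and from 12532 to 56921 at D25, with 1 gene at an unadjusted p under 0.05 and 0 in the other marker lists. Mf, myofilin, had 178, 196, 117 and 212 and 323, 827, 276 and 214, and Mhc, the myosin heavy chain, had 6032, 5605, 4482 and 2037 and 918, 5904, 299 and 3771, lowest in D25 replicates 1 and 3. Over 4 glia genes the sum ran from 3048 to 3891 at D20 and from 2951 to 6188 at D25. Gs2, glutamine synthetase, had 1186, 1249, 1281 and 1189 at D20 and 1651, 2327, 4160.4 and 1277 at D25, and repo, the glial transcription factor, had 538, 1196, 1057 and 1426 at D25. The sum over 5 support cell and epithelium genes ran from 10904 to 17359 and from 7116 to 19448. The epithelial factor grh had 907, 1072, 1460.3 and 7309 at D20 and 229.6, 1046, 524 and 5745 at D25, high in replicate 4 of each stage, and sv, a factor of sensillar support cells, had 793, 634, 1259 and 1291 and 75.2, 865, 313 and 2225. The genes the study used as support cell markers, LOC105182650, at 4347, 9209, 44225 and 831 at D25, LOC105188530, at 1875, 1333, 1411 and 2396, and LOC105190591, at 536, 508, 629.8 and 602, were all present, and D25 replicate 3 was the highest for the first. LOC105182650 had 4012, 4599, 3784 and 1921 at D20. Its log2 fold change was 2.02 ± 1.01 (adjusted p = 0.677, edgeR, Benjamini-Hochberg), and 0.43 without D25 replicate 3. Those of LOC105188530 and LOC105190591 were −0.59 ± 0.67 and 0.24 ± 0.20. Hemocyte and fat body genes, 4 in number, summed to 3702 to 5022 and 2520 to 5310, and 3 trachea genes to 83224 to 160807 and 62131 to 157737. The lowest p in these lists were those of apolpp, the apolipophorin precursor, with a log2 fold change of 1.08 ± 0.61 (0.49 without D25 replicate 3), and verm, a chitin deacetylase, with −0.30 ± 0.48 (standard errors). No member of these lists was at 0 over the 8 libraries, and their part in the results above was not tested.

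The change from D20 to D25 differed between WT and mutant antennae in 6 of 11086 genes (0.0541%), 3 with a more positive change in WT and 3 with a more negative one (edgeR's test of the interaction, Benjamini-Hochberg). In all 6, the change passed the threshold in mutant antennae and did not in WT. Fdx2, a ferredoxin of mitochondria, had 773, 596, 789 and 471 at WT D20 and 986, 564, 933 and 1203 at WT D25, and 2485, 3659 and 2274 and 645, 682 and 668 in mutants. WT libraries of both stages overlapped, whereas every mutant D20 library was above every mutant D25 library. The interaction was 2.54 with a standard error of 0.33 (adjusted p = 0.00159, edgeR, Benjamini-Hochberg). BBS8, a subunit of the BBSome of cilia, had 343, 294, 368 and 252 and 281, 312, 244 and 338 in WT, and 95.1, 74.8 and 70.6 and 359.5, 373 and 335 in mutants (interaction −2.26, adjusted p = 0.00159, edgeR, Benjamini-Hochberg). HsOr168 had 58, 40, 68.9 and 57.9 and 51.5, 101.3, 73.6 and 54.6 in WT, and 2.29, 1.57 and 1.2 and 198, 272 and 132 in mutants (interaction −6.57, adjusted p = 0.00481, edgeR, Benjamini-Hochberg). Its WT libraries all lay between the mutant values of D20 and those of D25.

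The other 3 genes have no symbol. LOC105189017 had 965, 672, 993 and 331 and 1279, 331, 110.3 and 1128 in WT, and 1975, 3201 and 1203 and 34.5, 47.1 and 44.9 in mutants (interaction 5.59, adjusted p = 0.00423, edgeR, Benjamini-Hochberg). LOC105187445 had 17, 9.69, 25.8 and 18.3 and 61.4, 7.69, 13.8 and 23.2 in WT, and 116, 2308 and 736 and 6.71, 5.88 and 26.1 in mutants (interaction 6.89, adjusted p = 0.0384, edgeR, Benjamini-Hochberg). LOC105183630 had an interaction of −1.30 with a standard error of 0.24 (adjusted p = 0.0384, edgeR, Benjamini-Hochberg), with mutant D25 values of 546, 569.6 and 639 above all other values of these groups. Mutant D20 replicate 1 was of batch 1 and the other mutant libraries of these stages were of batch 3, so batch was not balanced in this comparison. The count was 1776 with scaling by library size only, which moved the median interaction of all genes from 0.035 to 0.64, and 67 and 44 without WT D20 replicate 4 and WT D25 replicate 4.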

How the data were processed

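Counts of reads per gene and normalized values were deposited for 27 antennal libraries in 8 groups of genotype and stage. Per the labels and the methods, polyA RNA was prepared with an unstranded kit, 12 PCR cycles and 110 ng of input, and the authors aligned reads with STAR (2.6.1d per the submitters' processing notes), which also counted reads per gene. Unstranded counts cannot separate overlapping or antisense genes. The normalized values are a signal that the authors made by dividing counts by DESeq2 size factors (1.34.0), which the counts give back to within 4.1e-08. These values are given above per library. All tests used the counts. One batch was trimmed at the 3' end, and columns of no sample numbered 0.

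edgeR 4.0.16 in R 4.3.3 (quasi-likelihood, TMM scaling) was fitted to all 27 libraries with a term for each of the 8 groups, over the 11086 of 14407 genes whose counts averaged 10 or more. The contrasts were D25 minus D20 in WT, and this minus the same in mutants. An adjusted p (Benjamini-Hochberg over all genes tested) under 0.05 was called. The closest pair of replicates still differed beyond counting noise (chi-square 42.9 per degree of freedom), so none were merged. That chi-square is summed over genes, and at 8324206 to 47957602 counts per library counting error was not compared with the spread gene by gene. Genes with few reads carry more of it. In D25 replicate 3, HsIr317, at a normalized 4.6, had 1 count and Obp6, at 27.6, had 6. The step was tested on simulated data.

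Gene symbols came from RefSeq for 4090 genes. The 8 libraries and the 25 gene lists were chosen with earlier results of these data known. Genes were named as follows: up to 10 called in each direction with a mean of 100 or more in the higher stage and no overlap, the called members of each list or else its member with the lowest p, fixed markers, the 5 most abundant genes, and up to 5 with the lowest interaction p. All other genes named were chosen after their values were seen. Alternatives were DESeq2 1.42.0, its size factors, library size scaling, other filters, a batch term, subsets of libraries and a replicate block. Each WT or mutant library of D20 and D25 was also left out in turn. Leaving out replicate 4 of both stages was chosen after seeing the data.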

Additional observations from a re-analysis of the deposited data

Results flagged for a closer look

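In 27 of 149 groups of 4 libraries with at least 1 value of 100 or more, 1 library stood apart from the other 3 of its stage. The measure was the gap of the extreme library to its nearest neighbor as a share of the range of log2(normalized count + 1), set against Dixon's 95% critical value, and chance flags about 1 in 20 groups. The library was D20 replicate 4 in 21 of the 27, D25 replicate 4 in 3, D25 replicate 3 in 2 and D25 replicate 1 in 1. The genes examined include many chosen after D20 replicate 4 was seen to be extreme, so this count describes them and no more.

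D20 replicate 4 was the highest of its stage for Cyp303a1 (0.943), GCS2alpha (0.886), Osi23 (0.833), LOC105189842 (0.903), Eip74EF (0.942) and CSP2 (0.921). It was also the highest for 10 of the genes listed beside LOC105189380, namely LOC105189363 (0.905), LOC105189364 (0.967), LOC105189365 (0.917), LOC105189366 (0.934), LOC105189367 (0.91), LOC105189381 (1.0), LOC105189383 (0.913), LOC105189369 (0.839), LOC105189384 (0.885) and LOC105189372 (0.902). The same library was the lowest for apd-3l (0.887), LOC105189843 (0.832), LOC105189362 (0.877), Ddc (0.931) and Cpr92F (0.875).

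At D25, replicate 4 was the highest for TTLL15 (0.862) and for Cad89D, a cadherin gene (0.864), with 20535, 24201, 22282 and 68540.2 in replicates 1 to 4, and the lowest for Ddc (0.853). D25 replicate 3 was the lowest for nSyb (0.948) and cac (0.911), and D25 replicate 1 was the highest for LOC105190556 (0.902).

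The change from D20 to D25 differed between WT and mutant antennae, by the test of the interaction, for Fdx2 (log2 difference 2.54), BBS8 (−2.26), LOC105189017 (5.59), HsOr168 (−6.57), LOC105187445 (6.89) and LOC105183630 (−1.30).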

How the results depend on the processing

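The count of genes changed in WT was 43 with DESeq2, 4 with a batch term, and 0 with only the 8 WT libraries, only the 15 WT libraries or only batch 1 in edgeR, with 350, 517 and 1682 genes at an unadjusted p under 0.05. These fits estimate the spread from fewer libraries. It ran from 0 to 85 when 1 library of D20 or D25 was left out, the highest without D25 replicate 4. It was 6 without replicate 4 of both stages. The interaction count was 102 with DESeq2, 1776 with library size only and 48 with a batch term. It ran from 3 to 67 when 1 library of D20 or D25 was left out, and was 85 without replicate 4 of both stages. Under library size scaling the median over all genes went from 0.011 to −0.13 (log2) in WT and to 0.64 in the interaction. The cause of these differences was not tested.

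Replicate numbers did not pair the libraries. Deviations from the stage mean correlated at 0.20, 0.012, −0.21 and 0.43 between same-numbered libraries, and not every library correlated best with its own number. With the replicate block in the 8 WT libraries, 0 genes passed in edgeR (514 at an unadjusted p under 0.05), as without it, and LOC105189380 had an adjusted p of 0.793 (edgeR, Benjamini-Hochberg).

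Of 63 genes followed, 52 kept the sign of their log2 fold change in every alternative run. Signs reversed for cwo in batch 1 (−0.013), for LOC105190174 with library size only (−0.072), the replicate block (−0.18) and batch 1 (−0.072), for LOC105183587 with library size only (−0.0585), a batch term (−0.079) and batch 1 (−0.35), for repo with library size only (−0.14) and the replicate block (−0.012), and for LOC105189017 with a batch term (0.037). Without replicate 4 of both stages they reversed for cwo (−0.028), LOC105190174 (−0.089) and LOC105183587 (−0.37). With 1 library left out, log2 fold changes ran from −6.43 to 1.25 for Cyp303a1, 0.048 to 0.39 for cwo, −2.14 to 0.73 for grh, −0.30 to 0.39 for LOC105190174, −0.28 to 0.20 for Syt1, −0.48 to 0.40 for LOC105183587, −0.12 to 0.27 for repo, −1.23 to 0.19 for sv, −0.072 to 0.56 for apd-3l, −0.49 to 0.31 for LOC105189017 and −0.19 to 0.93 for LOC105187445. The count of calls in a gene list was other than 0 in 7 of 475 list counts.

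Limits include the spread between D25 libraries, 4 libraries a stage, and 1 library of each stage in batch 3. Values of genes near 0 at D20 rest on few reads. Low values in D25 replicate 3, the library with the fewest counts, also rest on few reads.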
